A study of Saccharomyces cerevisiae with 4 samples.

Results

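SUL1 (YBR294W) and SUL2 (YLR092W) encode the sulfate permeases of the plasma membrane of the budding yeast Saccharomyces cerevisiae. They were picked by systematic name, and these 2 genes are all the members among 6260 open reading frames (ORFs) in the deposited table. The rule also asked for a value on every array, with an exact 0 treated as not measured, and both genes met it. The strains were labelled met28, met31, met32 and cbf1, each a knockout of the transcription factor gene of that name, and each was compared with wild type on a 2-colour array. The wild-type channel was labelled "wt" for met31 and met32 and "wt+met" for met28 and cbf1, so 2 of the strains were set against a wild type with methionine. The strain channels carry the gene name alone, and these names do not say whether the met28 and cbf1 cultures also had methionine. Per the labels, colonies of all strains came from plates with G418, and YNB (minimal medium) cultures at 30 °C were harvested at an OD600 between 0.8 and 1.0. Strain background, mating type and the number of clones behind each deletion are not stated in the labels.

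Yeast takes up inorganic sulfate through Sul1 and Sul2, activates it with ATP, reduces it to sulfide and builds the sulfide into homocysteine, from which methionine and cysteine are made. The genes of this route are under the activator Met4, which does not bind DNA well by itself. It is brought to promoters by Cbf1, or by the paralogous zinc-finger proteins Met31 and Met32, and Met28 stabilises such complexes. Sul1 and Sul2 overlap in function, also take up toxic analogues such as selenate and chromate, and their genes are repressed when cells have ample methionine.

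Each strain has 1 deposited column, so every value below rests on n = 1 column, and no standard error, p-value or replicate check could be given. Whether a column averages over cultures is not stated in the labels. The number of arrays limits the precision. The values are signed and were read as log ratios of strain to wild type. No label gives the log base, so folds are printed for both bases. The direction is likely but not settled. It rests on the deleted genes: MET28 was the lowest of 5242 measured ORFs on its own array at -1.294, MET31 was at position 5 from the lowest of 5893 at -0.320, and CBF1 at position 4 of 5383 at -0.995. On the array labelled met32, where 5882 ORFs were measured, MET32 had a value of 0.012. The deletion was thus not visible there, and the direction of that array was not settled. A ratio on an array says nothing of the absolute level of a transcript, so SUL1 and SUL2 are compared below by their ratios only.

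Both permease genes were far below 0 on the met28 array, that is, below the wt+met channel if the direction is as read. SUL2 was at -0.801 and SUL1 at -0.745, positions 3 and 4 from the lowest of the array. On this array only MET28 itself and MCM16, a kinetochore gene at -0.969, were lower. Read as log10 ratios, the values are levels 6.32-fold (SUL2) and 5.56-fold (SUL1) below the reference channel, and read as log2 ratios 1.74-fold and 1.68-fold below it. Calls were made by place, as the lowest or highest 2.5% of the measured ORFs. Both permease genes were in the lowest 2.5% of the met28 array, which held 133 ORFs (2.54%). Both also passed a 2-fold decrease on the log10 reading, as did 0.668% of measured ORFs. On the log2 reading neither passed a 2-fold decrease, which 0.0191% of ORFs did. The next ORF above SUL1 was YDR095C at -0.629, so the permeases were separated by 0.116 from the rest of the ranked list.

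The permease genes were low again on the cbf1 array, also set against wt+met, with SUL1 the more so. SUL1 was at -1.119, the second lowest of the array, between TVP23 at -1.153 and SPO71 at -1.088, and below CBF1 itself. SUL2 was at -0.644, at position 13, between MSH4 at -0.646 and MET5 at -0.607. On the log10 reading SUL1 was 13.2-fold and SUL2 4.41-fold below the reference channel, and on the log2 reading 2.17-fold and 1.56-fold. Both genes were in the lowest 2.5% of the cbf1 array, which held 135 ORFs (2.51%), and both passed the 2-fold decrease on the log10 reading, as did 2.21% of ORFs. On the log2 reading SUL1 alone of the pair passed it, with 0.0557% of ORFs. TVP23 was listed at 0 on met28 and met31, and SPO71 on met28. The cbf1 array as a whole lay low, with a median of -0.034 over measured ORFs. After subtraction of that median SUL1 was at -1.085 and SUL2 at -0.610.

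In the strain without MET31 neither permease gene was in a tail. SUL1 was at 0.124, with 245 of 5893 measured ORFs above it, and SUL2 was at -0.018, near the middle with 36.6% of ORFs below it. The lowest and highest 2.5% of this array held 2.55% and 2.51% of ORFs, with limits at -0.122 and 0.156, so SUL1 lay inside the upper limit. On the log10 reading SUL1 was 1.33-fold above the reference channel, short of the 2-fold increase that 0.373% of ORFs passed.

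On the array labelled met32 both genes were below 0 as deposited and in neither tail. SUL2 was at -0.130, with 4.64% of measured ORFs below it, and SUL1 was at -0.035, with 28.8% below it. With the sign turned they would be at 0.130 and 0.035. The lower limit of this array was -0.168, and its lowest and highest 2.5% held 2.52% and 2.58% of ORFs.

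**Figure D1:**
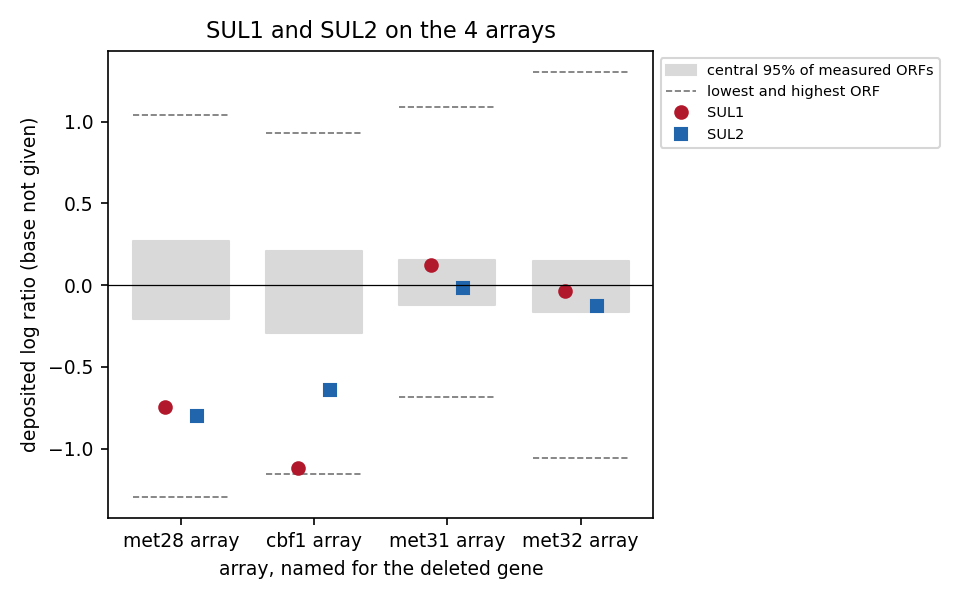
Deposited log ratio (y axis, base not given) of SUL1 (circles) and SUL2 (squares) on each array (x axis), with 1 value per gene and array. Grey boxes span the values between the lowest and highest 2.5% of measured ORFs and dashed lines mark the extreme ORFs; both genes lie far below the box on met28 (-0.745 and -0.801) and cbf1 (-1.119 and -0.644), and inside it on met31 and met32.

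The order of the arrays differed between the genes. For SUL1 it ran from cbf1 (-1.119) through met28 (-0.745) and met32 (-0.035) to met31 (0.124). For SUL2 it ran from met28 (-0.801) through cbf1 (-0.644) and met32 (-0.130) to met31 (-0.018). As deposited, the widest step between neighbours in these orders was from the met28 and cbf1 arrays up to met32, at 0.710 for SUL1 and 0.514 for SUL2. The step from cbf1 to met28 was 0.374 for SUL1, and the one from met28 to cbf1 was 0.157 for SUL2. The steps from met32 to met31 were 0.159 and 0.112 as deposited. With the sign of met32 turned, SUL1 kept its order of arrays, with steps of 0.780 from met28 to met32 (0.035) and 0.089 from there to met31. SUL2 would then run from cbf1 to met31, a step of 0.626, and on to met32 (0.130), a step of 0.148, so met31 and met32 change places. Without replicates it cannot be said whether any neighbours differ beyond their spread. The met28 and cbf1 arrays carry another reference label than met31 and met32, so the strain and the reference cannot be told apart in the wide step. Whether the met28 and cbf1 arrays share 1 wild-type RNA is not stated in the labels, and the same holds for met31 and met32.

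The arrays also differ in how widely their values scatter. The robust SD, a spread measure taken from the median absolute deviation, was 0.110 on cbf1 and 0.0778 on met28, against 0.0608 on met32 and 0.0519 on met31. With every array set to a common robust SD, SUL1 was at -0.718 on met28 and -0.766 on cbf1, so the step between these arrays shrank to a small part of its deposited size. SUL2 was then at -0.772 on met28 and -0.441 on cbf1, further apart than as deposited. This scaling cannot change a gene's rank within an array.

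The paralogs were close on met28 and apart on cbf1. SUL1 minus SUL2 was 0.056 on the met28 array, 0.142 on met31 and 0.095 on met32, that is, SUL1 had the higher ratio on these arrays. On the cbf1 array the difference was -0.475, with SUL1 the lower. In units of each array's robust SD the differences were 0.719, 2.74, 1.56 and -4.33. On the log10 reading the ratio of SUL2 on the cbf1 array was 2.99-fold that of SUL1. The direction of the difference on met32 turns with the sign of that array. The difference was not tested, since each gene has 1 value per array.

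Other members of the SulP family, to which the permeases belong, did not share the low values on met28 and cbf1. VSB1 (YGR125W), a vacuolar membrane protein gene, was at 0.157, -0.062, 0.009 and -0.036 on the met28, cbf1, met31 and met32 arrays. YPR003C, whose product resembles the sulfate permeases, was at -0.029, 0.006, -0.003 and -0.075. Neither was in a tail on any array. On met31 and met32, where the permeases were in no tail either, both lay between SUL1 and SUL2.

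Of the 8 genes of sulfate activation and reduction, 7 were measured on the met28 array and 5 were in its lowest 2.5%. Their median was -0.321 beside 0.0015 over all measured ORFs. On the cbf1 array all 8 were measured and 5 were in the lowest 2.5%. Their median was -0.368 beside -0.034. On met28 the permeases were the lowest pair of the 9 measured sulfate genes, and the others ran from MET16 at -0.576 to MET8 at -0.119. On cbf1 SUL1 was the lowest of 10, while SUL2 came after MET16, the reductase gene of activated sulfate, at -0.711 and MET22, a nucleotide phosphatase gene, at -0.676.

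The genes for the first enzymes after uptake were not low with the permeases on cbf1. MET3, the ATP sulfurylase gene, was at -0.188 on met28 and 0.041 on cbf1, in neither tail. On met28 it was near the lower limit, at position 155 from the lowest of 5242. MET14, the adenylylsulfate kinase gene, was at 0.193 on cbf1, just outside the highest 2.5% at position 5213 from the lowest of 5383. It was listed at 0 on met28. The sulfite reductase subunit genes lay between these and the permeases, with MET5 at -0.411 on met28 and -0.607 on cbf1, and MET10 at -0.308 and -0.422. The siroheme genes, which make the cofactor of that reductase, were at -0.321 and -0.313 for MET1 and at -0.119 and -0.162 for MET8. MET8 was in neither tail on either array.

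**Figure D2:**
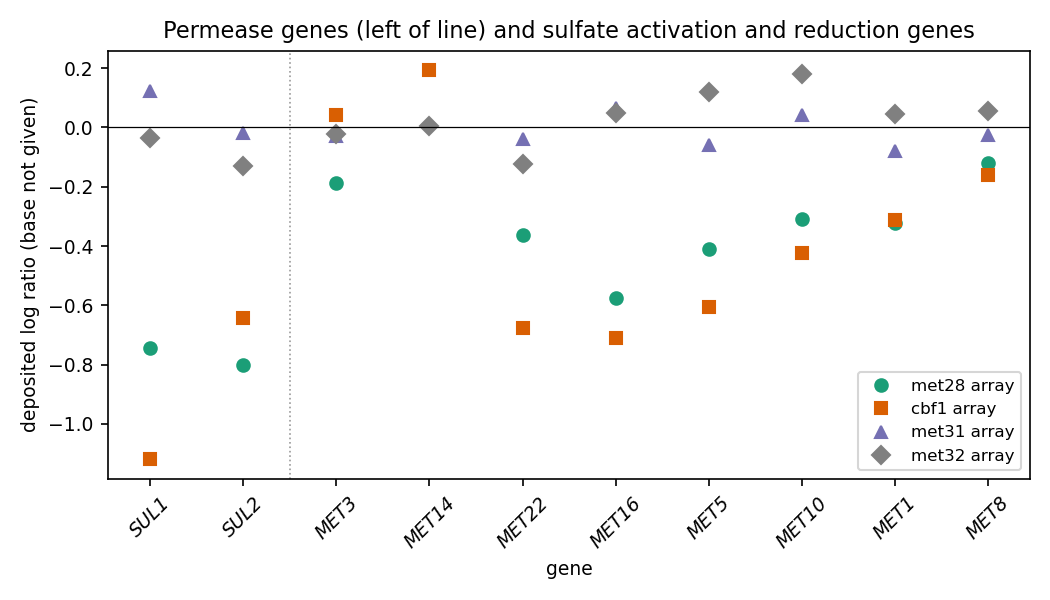
Deposited log ratio (y axis, base not given) of the permease genes and of 8 genes of sulfate activation and reduction (x axis), with 1 point per array and values of exactly 0 left out. On met28 both permeases lie below the other genes, and on cbf1 SUL1 lies below all of them and SUL2 among MET16 (-0.711), MET22 (-0.676) and MET5 (-0.607).

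On met31 the sulfate genes scattered around 0 and SUL1 was the highest of the 9 measured. The 7 measured activation and reduction genes ran from -0.080 (MET1) to 0.066 (MET16), and none was in a tail. On met32 the 8 genes ran from -0.123 (MET22) to 0.180 (MET10), with MET10 in the highest 2.5%, and SUL2 lay below all of them as deposited. With the sign of met32 turned, SUL2 at 0.130 would be the highest of the 10 sulfate genes and MET10 at -0.180 would be in the lowest 2.5%.

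Most transporters for other sulfur compounds had the opposite sign to the sulfate permeases on met28 and cbf1. Of 11 such genes, 10 were measured on met28 and 8 were in its highest 2.5% (2.52% of ORFs), and their median was 0.663. On cbf1 10 were measured and 5 were in the highest 2.5% (2.51%), and their median was 0.211. The value of AGP3, for a broad amino acid permease, was 1.018 on met28 and 0.514 on cbf1. The methionine permease gene MUP1 was at 0.933 and 0.929, and OPT1, an oligopeptide and glutathione transporter gene, at 0.735 and 0.869. None of the 11 was in the lowest 2.5% of either array. On cbf1 MUP1 was the highest measured ORF and SUL1 the second lowest, so these transporter genes spanned nearly the whole array.

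Some sulfur transporter genes did not follow that pattern. SSU1, the sulfite efflux pump gene, was at -0.098 on met28 and -0.156 on cbf1, in neither tail. AGP1 was at 0.017 on met28 and -0.112 on cbf1, also in neither tail. SEO1, a putative permease gene, was at 0.956 on met28 but -0.027 on cbf1, and YCT1, the cysteine transporter gene, was at 0.591 and 0.098. MUP3 was at 0.407 on met28 but at 0.141 on cbf1, there in neither tail. YIL166C (SOA1), a transporter gene for sulfonates and other sulfur anions, was listed at 0 on both arrays. On met31, 4 of the 11 genes lay in the low tail and 1 in the high one. MUP1 was at -0.684 and SEO1 at 0.362, while the sulfate permeases were in neither tail. On met32 none of the 10 measured was in a tail.

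**Figure D3:**
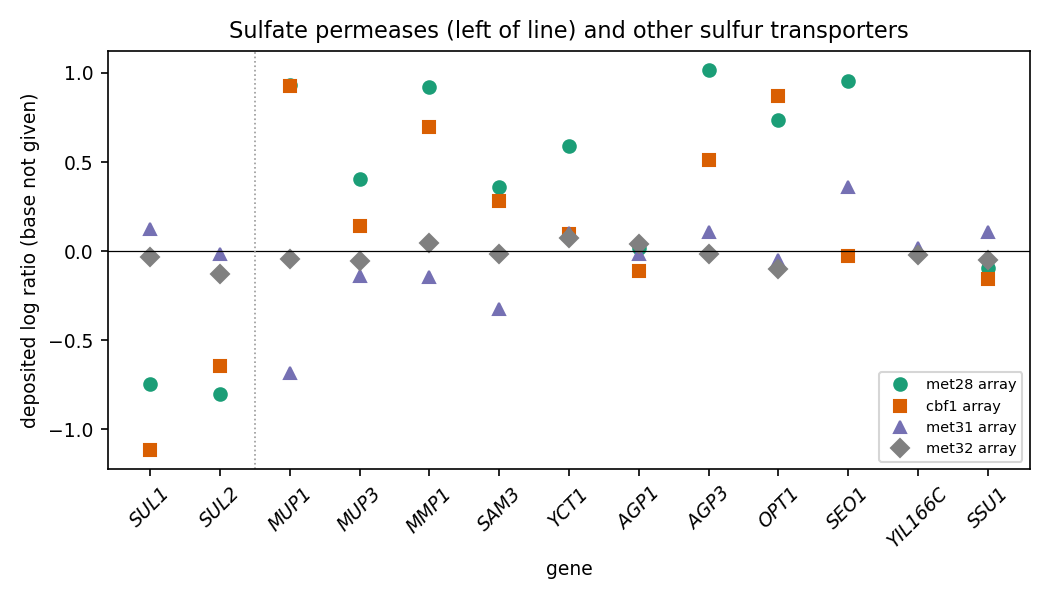
Deposited log ratio (y axis, base not given) of the sulfate permease genes and of 11 genes for other sulfur transporters (x axis), with 1 point per array and values of exactly 0 left out. On met28 and cbf1 the sulfate permeases lie between -1.119 and -0.644, while MUP1, MMP1, AGP3 and OPT1 lie between 0.514 and 1.018. AGP1 and SSU1 lie between -0.156 and 0.017 on these arrays.

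Transporters of other inorganic nutrients were mostly unlike the sulfate permeases. Of 8 phosphate and ammonium transporter genes, 7 were measured on met28, where none was in the lowest 2.5% and PHO84 (high-affinity phosphate uptake) had a value of 1.016 in the highest. On cbf1 the 7 measured genes ran from -0.235 (MEP2) to 0.090 (PHO91), with none in a tail. On met31 PHO84 was at 0.243 in the highest 2.5%, and on met32 MEP2 (-0.282), PHO89 (-0.196) and PHO90 (-0.196) were in the lowest 2.5% as deposited.

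Among the regulators, none but the deleted gene was in the lowest 2.5% of the met28 or the cbf1 array. On met28 CBF1 was at 0.019, MET32 at 0.022 and MET30, the gene for the ubiquitin ligase subunit that restrains Met4, at 0.099, while MET31 was at 0.598 in the highest 2.5%. On cbf1 MET28 was at 0.244 in the highest 2.5%, MET32 at -0.066 and MET30 at 0.042, and MET31 was listed at 0. MET4 was listed at 0 on met28, met31 and cbf1 and was at -0.001 on met32, so the table gives almost nothing on the activator's own transcript.

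The ORFs whose values over the 4 arrays were nearest to those of the permeases were found by Euclidean distance, after each array was median centred and divided by its robust SD. Of 4660 ORFs measured on all 4 arrays, MET16 was the nearest to SUL1, at a distance of 4.66, and also to SUL2, at 4.49. With this scaling the permeases were each other's second nearest, at 5.40. MET22 came next for both, at 7.24 from SUL1 and 5.66 from SUL2. MET5 and RMD6, an ORF of no list here, completed the 5 nearest of both genes. The values of RMD6 were -0.489, -0.353, 0.145 and -0.005 in the order met28, cbf1, met31, met32. The median distance over all 4660 ORFs was 14.1 from SUL1 and 12.02 from SUL2. SUL1 lay 14.0 and SUL2 11.9 from the medians of the arrays, so a typical ORF had to be about that far away. The median distance thus says little on how alike the nearest ORFs are. The distances are a description over 4 arrays only.

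None of the genes measured beside the permeases on the chromosomes was in the low tail of met28 or cbf1. SUL1 lies on chromosome II between VBA2, a vacuolar amino acid transporter gene, and PCA1, a cadmium transporting ATPase gene. VBA2 was at 0.433 on met28, in the highest 2.5%, and 0.033 on cbf1, and PCA1 at 0.044 and 0.239, the latter in the highest 2.5%. Of the 6 neighbours of SUL1, 3 on each side, 3 were measured on met28 and 4 on cbf1, with CTP1, a citrate transporter gene, the lowest at -0.097 and -0.255. The latter value was near the lower limit of the cbf1 array, -0.291. SUL2 lies on chromosome XII between GEP5 and NYV1, a gene for a vacuolar SNARE. Its 6 neighbours ranged from -0.121 to 0.135 on met28 and from -0.146 to 0.110 on cbf1, all outside the tails. On met32, 193 of 390 named ORFs of chromosome II (49.5%) were listed at 0, against 10 of 500 on chromosome XII. SUL1 and its 6 neighbours had values there, and what the zeros of that chromosome mean for the SUL1 value was not tested.

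**Figure D4:**
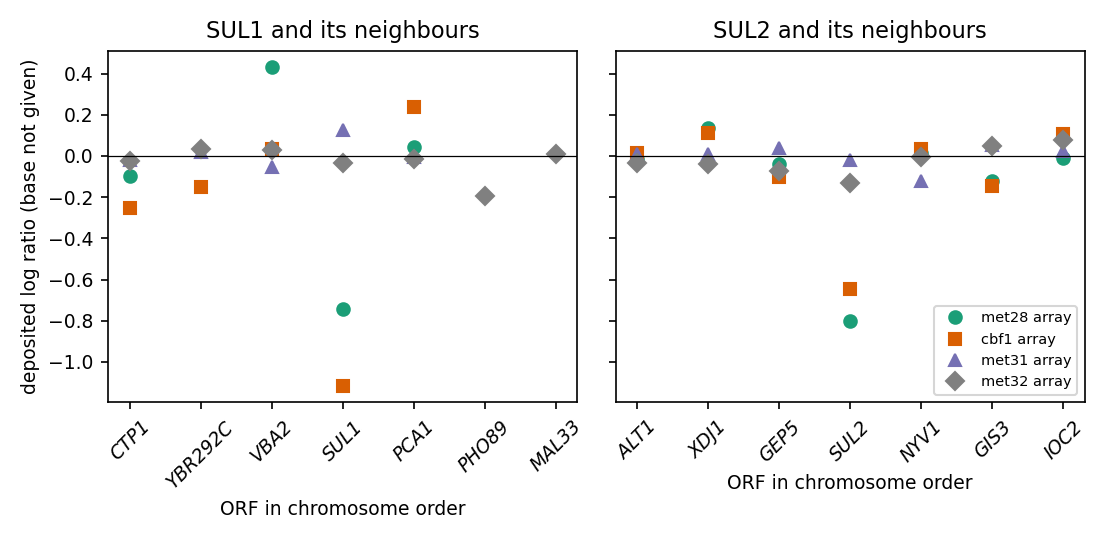
Deposited log ratio (y axis, base not given) of SUL1 and SUL2 and of the 3 ORFs on each side in chromosome order (x axis), with 1 point per array and values of exactly 0 left out. The permeases are low on met28 and cbf1, while their measured neighbours on these arrays lie between -0.255 and 0.433.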

How the data were processed

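RNA of 4 yeast deletion strains was hybridised with wild-type RNA on 2-colour arrays. The authors deposited 1 signed score per ORF and strain, taken here to be a log ratio. Its log base, centring, background correction, handling of dye swaps and any averaging over cultures are not stated in the labels, and channel intensities were not used here. The labels state that more than 1 biological sample was grown per strain, but there is 1 column each. The labels give the dyes as either, so the direction was taken from the deleted genes. The correlations between pairs of arrays over ORFs ran from -0.129 (met28 with met31) to 0.183 (met28 with cbf1).

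An exact 0 was treated as not measured. For each array the place of every value among measured ORFs, the median and the robust SD (1.4826 times the median absolute deviation) were computed. Python 3.11.15, pandas 2.3.3 and numpy 2.4.6 were used. The code for the tails and distances was run on simulated noise with planted, nearly identical profiles, which were found. That run does not bear on how reliable ranks or distances are in these data. Named genes were the permeases, the deleted genes, every list, the 5 nearest ORFs, ORFs adjoining in rank, and 3 chromosomal neighbours on each side. RMD6 and the examples from each list follow from this rule. Members, lists and rule were chosen with earlier results of these data known. Symbols and gene order came from the RefSeq table of assembly R64. With 1 sample per group there was no test between strains, and list counts and medians only describe each array. Alternatives were the centring, the scale, the zeros, the ORFs ranked, the thresholds, the log base, and the sign of met32. A planned search of promoters for motifs was not run.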

Additional observations from a re-analysis of the deposited data

How the results depend on the processing

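No paired analysis was possible because each strain has 1 column and no test was run, and for the same reason no replicate could be left out. Median centring gave SUL1 -0.7465, -1.085, 0.126 and -0.033 on met28, cbf1, met31 and met32, and SUL2 -0.8025, -0.610, -0.016 and -0.128. With arrays set to a common robust SD, SUL1 was at -0.718, -0.766, 0.179 and -0.0432, and SUL2 at -0.772, -0.441, -0.0260 and -0.161, in the same order of arrays. SUL1 minus SUL2 was then 0.0540, -0.325, 0.205 and 0.117. Turning the sign of met32 gives 0.035 for SUL1 and 0.130 for SUL2. Both permeases were in the lowest tail of met28 and cbf1 with tails of 1%, 2.5% and 5%, with zeros counted as values, over ORFs measured on all 4 arrays, and at 1.5-fold, 2-fold and 3-fold on the log10 reading. At 2-fold on the log2 reading 0 passed on met28 and 1, SUL1, on cbf1. With tails of 5%, 1 permease entered the highest tail of met31 (SUL1) and 1 the lowest tail of met32 (SUL2). Of the list counts, 36 of 40 stayed within 1.5 times with tails of 5%, and all 40 with zeros counted as values. Most of these counts were 0 in the main setting, and a 0 that stayed 0 was taken as unchanged. The sulfate activation and reduction genes in the lowest tail of met28 went from 5 to 6 in both settings, with MET3 entering. In the highest tail of cbf1 they went from 0 to 1 with tails of 5%, with MET14 entering. The 5 nearest ORFs of SUL2 were the same without scaling and without met32, and for SUL1 4 of 5 were, with TRI1 in place of RMD6. Their order from SUL2 changed, with SUL1 at rank 2 in the main setting, 5 without scaling and 3 without met32. From SUL1, SUL2 stayed at rank 2 in each setting.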
